A study of Homo sapiens with 6 samples.

Results

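The 50 genes described here serve the last part of the cell cycle, from the entry into mitosis to the separation of the daughter cells. They were taken by symbol from a deposited table of 30726 genes, as a fixed list of mitotic kinases, cyclins, kinesins, kinetochore, condensin and cytokinesis genes, and all 50 symbols had a row. The table holds polysome-associated RNA, which is mRNA bound by several ribosomes, from 3 established human breast cancer cell lines. By their labels SUM1315 is a triple-negative line, SKBR3 a HER2-positive luminal line and T47D a line of the luminal A kind. Each line, wild type by its label, was kept at 1% oxygen for 8 hours (hypoxia) or at 21% oxygen (normoxia), and cycloheximide was added to all cells before collection to hold ribosomes on mRNA. There were 6 libraries, 3 hypoxic and 3 normoxic, with a single one for any line and oxygen level. The 3 lines are thus the only replication. The p-values rest on the spread between library pairs, drawn mostly from all genes together and less from the gene itself. The study asks how hypoxia changes which mRNAs are translated. RNA of whole lysates was not used here, so a change of mRNA amount cannot be told apart from a change of ribosome loading.

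Mitosis is driven by the kinase CDK1 with its cyclins and by Polo and Aurora kinases, which prepare chromosomes and spindle. The spindle checkpoint holds cells before anaphase until every kinetochore is attached, and the anaphase-promoting complex then destroys cyclin B and securin. Most genes of these proteins are transcribed in late S phase and G2, under the MuvB complex with MYBL2 and FOXM1, which acts through the cell cycle genes homology region (CHR), often beside CCAAT boxes bound by NF-Y. Low oxygen is known to slow proliferation in many cells. In a bulk lysate, fewer cells in G2 and mitosis and less of these mRNAs per cell cannot be told apart.

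Promoter sequences show what the members share that the list did not use. RefSeq (GRCh38.p14) gave windows from 250 bases before to 50 bases after the annotated start for 43 of the 50 genes, and the 7 others were UBE2C, AURKA, TPX2, BIRC5, BUB3, FOXM1 and TTK. A CHR element was searched as TTTGAA or TTCGAA and a CCAAT box as CCAAT, each on both strands. The 5 windows below belong to genes the results turn on: the called gene TOP2A, HMMR, which had the next highest fold change, and CDCA8, CCNA2 and CCNB2, which were among the lowest in T47D. Sequences run 5′ to 3′ on the gene's strand, and capitals mark CHR and CCAAT matches, of which the CHR match and the last CCAAT match share 1 base in CDCA8 and a pair of CCAAT matches share 2 in HMMR.
TOP2A, chr17:40417847-40418146 (minus strand).
TOP2A: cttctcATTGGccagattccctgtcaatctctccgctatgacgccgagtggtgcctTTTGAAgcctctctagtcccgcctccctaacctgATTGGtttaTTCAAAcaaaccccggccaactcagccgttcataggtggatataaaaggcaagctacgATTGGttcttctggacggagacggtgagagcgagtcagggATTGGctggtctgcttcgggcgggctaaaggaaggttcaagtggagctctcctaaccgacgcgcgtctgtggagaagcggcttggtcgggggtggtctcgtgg
HMMR, chr5:163460382-163460681 (plus strand).
HMMR: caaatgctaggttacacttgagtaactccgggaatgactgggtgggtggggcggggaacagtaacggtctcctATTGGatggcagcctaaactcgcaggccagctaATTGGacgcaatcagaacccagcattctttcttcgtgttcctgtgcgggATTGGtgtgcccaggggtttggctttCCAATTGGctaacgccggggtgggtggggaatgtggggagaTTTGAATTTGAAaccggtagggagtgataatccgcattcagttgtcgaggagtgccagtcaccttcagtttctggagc
CDCA8, chr1:37692266-37692565 (plus strand).
CDCA8: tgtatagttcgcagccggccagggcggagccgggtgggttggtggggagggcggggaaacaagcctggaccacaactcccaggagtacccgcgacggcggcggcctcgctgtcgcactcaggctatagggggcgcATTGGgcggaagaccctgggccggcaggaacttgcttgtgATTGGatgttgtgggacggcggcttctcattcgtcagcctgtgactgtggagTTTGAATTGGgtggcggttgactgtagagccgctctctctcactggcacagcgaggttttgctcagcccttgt
CCNA2, chr4:121823834-121824133 (minus strand).
CCNA2: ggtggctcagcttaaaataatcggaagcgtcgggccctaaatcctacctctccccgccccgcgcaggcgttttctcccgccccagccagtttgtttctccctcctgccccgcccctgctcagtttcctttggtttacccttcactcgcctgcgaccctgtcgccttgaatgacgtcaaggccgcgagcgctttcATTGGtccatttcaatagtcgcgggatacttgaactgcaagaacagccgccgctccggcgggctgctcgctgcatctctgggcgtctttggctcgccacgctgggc
CCNB2, chr15:59104896-59105195 (plus strand).
CCNB2: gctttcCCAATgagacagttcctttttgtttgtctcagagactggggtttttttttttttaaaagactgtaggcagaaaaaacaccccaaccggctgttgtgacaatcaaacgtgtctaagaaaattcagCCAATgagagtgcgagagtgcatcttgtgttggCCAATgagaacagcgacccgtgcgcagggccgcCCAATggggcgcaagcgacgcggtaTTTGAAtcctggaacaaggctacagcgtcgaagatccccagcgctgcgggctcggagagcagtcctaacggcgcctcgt
CCNB2 carries a CHR element that begins 29 bases before the start and 4 CCAAT boxes upstream of it. HMMR has a pair of adjoining CHR elements that begin at -28 and -22. In CCNA2 neither CHR word occurs in the window, which holds 1 CCAAT match. Other spellings of the CHR were not searched, so an element in CCNA2 could have been missed.

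A CHR match was present in 33 of the 43 member windows (76.7%), against 10.4% of the 7960 windows of all tested genes and 16.4% of all 35116 windows in the table. CCAAT occurred in 32 members (74.4%), against 37.8% of the windows of tested genes. Both motifs together occurred in 26 members (60.5%), against 4.66% of the windows of tested genes. The core of the hypoxia response element, ACGTG or GCGTG on either strand, occurred in 28 members (65.1%), about as often as in all tested genes (65.3%). In position windows set after the matches were seen, of 42 CHR matches 27 began between 60 bases before and 20 bases after the start, and 48 of 69 CCAAT matches began between -130 and -30. Members on either side of 0 in hypoxia carried CHR matches, with 24 of 28 windows (85.7%) for fold changes above 0 and 9 of 14 (64.3%) for those below 0. CCAAT matches ran the other way, in 19 of 28 windows (67.9%) above 0 and 13 of 14 (92.9%) below 0, and neither split was tested. These matches describe letters in the windows and are no measure of binding.

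**Figure D1:**
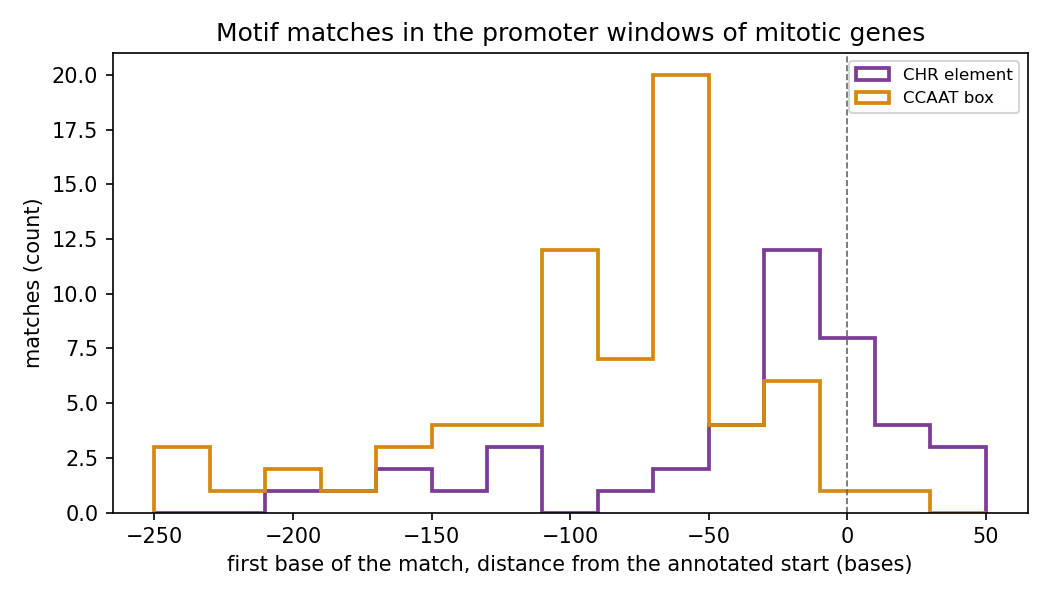
Number of matches (y axis) of the CHR element (purple) and the CCAAT box (orange) in the promoter windows of 43 mitotic genes, by the distance of the first base of the match from the annotated start (x axis, bases, in bins of 20). CCAAT matches collect between -130 and -30 and CHR matches next to the start, with medians of -75 and -24.5.

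Values are RPKM, reads divided by transcript length in kilobases and by library size, and each library had between 9675 and 10842 genes at or above 1 RPKM. Judged by the smallest steps in the values, a 1 kb transcript at 1 RPKM was covered by 21.7 to 33.4 reads or read pairs. As a check of the oxygen labels, 10 of 10 listed HIF targets rose, from LDHA (log2 fold change 1.25 ± 0.15, SE) to DDIT4 (3.60 ± 0.17). Among line markers, ERBB2 stood at 743 and 615 RPKM in hypoxic and normoxic SKBR3 cells and ESR1 at 4.54 and 5.18 RPKM in those of T47D. SUM1315 had VIM at 1161 and 407 RPKM and the epithelial markers KRT18, KRT8 and EPCAM below 1 RPKM in both libraries. Of 8 leukocyte and stromal markers, 6 were at or below 0.145 RPKM in every library, and the 2 collagen genes reached 29.2 RPKM (COL1A2) and 119 RPKM (COL1A1) in hypoxic SUM1315 cells.

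Levels of the mitotic mRNAs on polysomes spanned 0.240 to 394 RPKM. The highest were those of UBE2C, the ubiquitin-conjugating enzyme of the anaphase-promoting complex, PTTG1 (securin) and BIRC5 (survivin). UBE2C stood at 179.7, 138 and 321 RPKM in hypoxic SUM1315, SKBR3 and T47D cells, against 199, 207 and 394 RPKM in normoxic cells of these lines. BIRC5 had 89.1, 58.8 and 77.9 RPKM in hypoxic cells of these lines, against 119, 66.9 and 77.9 RPKM in normoxic ones. At the low end were KIF14, KIF20B and CENPE, the kinetochore kinesin that powers chromosome congression. CENPE had 1.07, 0.707 and 0.240 RPKM in hypoxic SUM1315, SKBR3 and T47D cells, against 0.919, 0.747 and 0.422 RPKM in normoxic ones. KIF14, a motor of cytokinesis, had 2.68, 0.828 and 1.13 RPKM in hypoxic cells against 1.75, 0.857 and 1.08 RPKM in normoxic ones. KIF20B, another motor of cytokinesis, had 2.08, 0.590 and 1.801 RPKM in hypoxic cells against 1.33, 0.492 and 1.30 RPKM in normoxic ones. In all 3 genes SUM1315 gave the highest value at either oxygen level. CENPE was the 1 member below the filter for tests (1 RPKM in at least 3 of 6 libraries), which left 49.

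**Figure D2:**
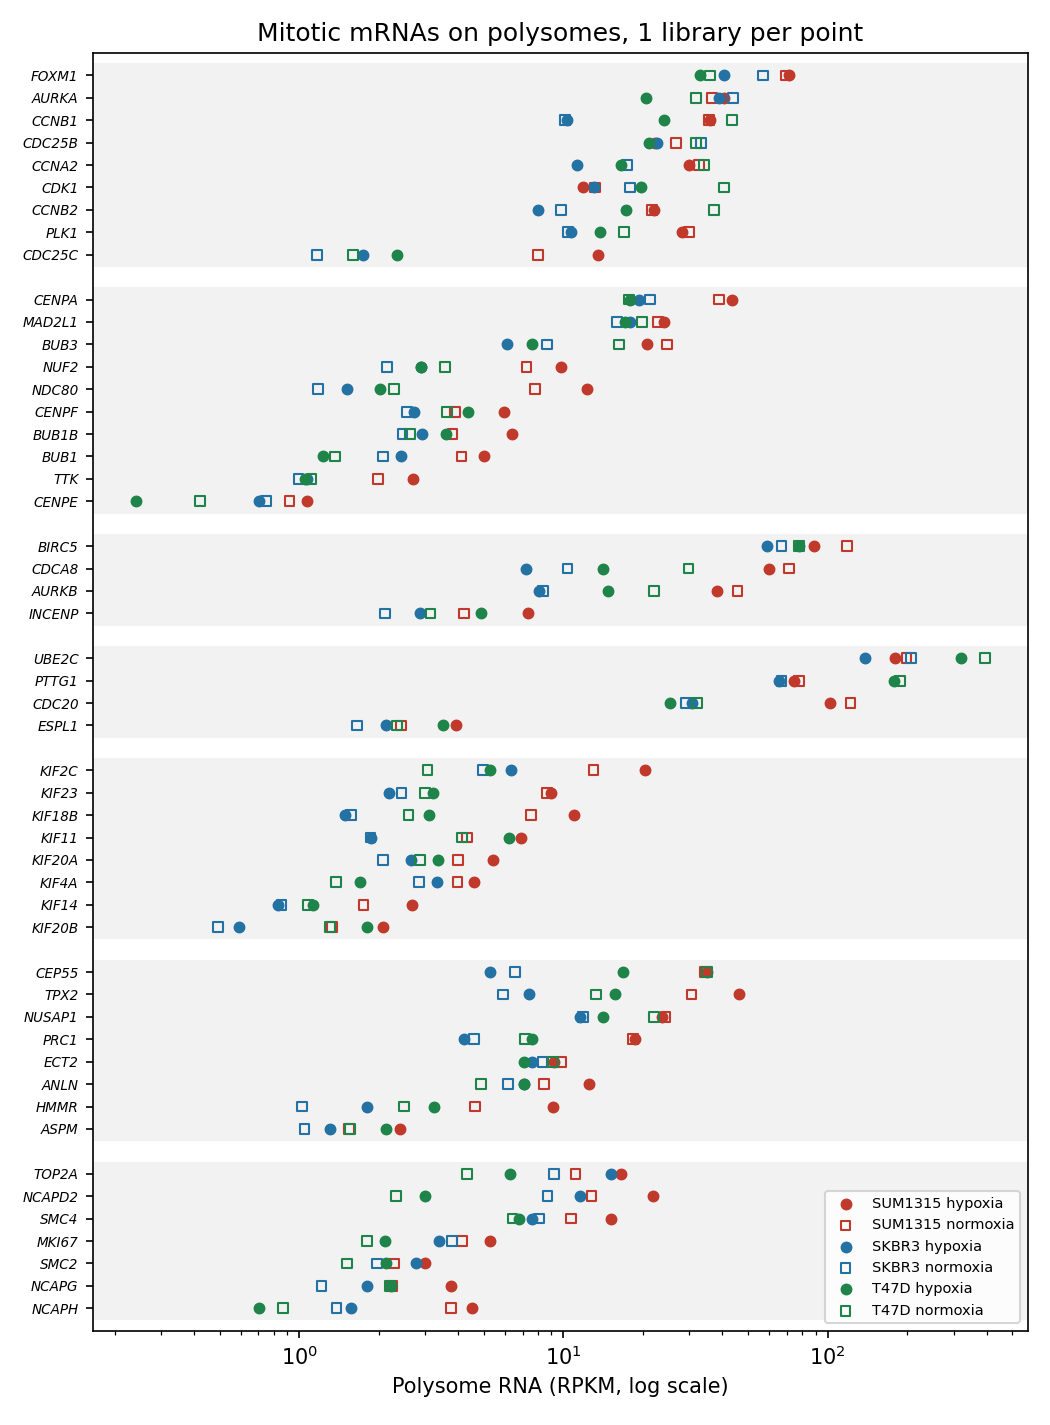
Polysome RNA of all 50 mitotic genes in the 6 libraries (x axis, RPKM, log scale), with filled circles for hypoxia, open squares for normoxia and colour for the line. Grey bands hold, from the top, mitotic entry, kinetochore and checkpoint, chromosomal passenger complex, anaphase promotion, kinesins, spindle and cytokinesis, and chromosome structure genes. Red SUM1315 points lie to the right in most rows.

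Between hypoxia and normoxia 1 of the 49 tested mitotic genes passed the test. Fold changes were estimated with limma on log2(RPKM + 1) over all 10253 genes above the filter, with cell line as a block, and a gene was called at a Benjamini-Hochberg adjusted p under 0.05. One member was called higher (2.04%, against 4.12% of all tested genes) and 0 were called lower (against 2.26%). At an unadjusted p under 0.05, 14 members were higher (28.6%) and 5 lower (10.2%), against 14.2% and 12% of all tested genes. Fold changes ran from -0.58 to 0.55 on the log2 scale, with 30 above 0 and 19 below (5042 and 5211 of all tested genes), and had a median of 0.10 beside -0.01 over all tested genes. All 3 lines gave log2 ratios above 0 in 18 members (36.7%) and below 0 in 10 (20.4%), against 23.5% and 25.2% of all tested genes, and 21 had mixed signs.

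The called gene was TOP2A, which encodes the topoisomerase that untangles sister chromatids. It stood at 16.5, 15.2 and 6.30 RPKM in hypoxic SUM1315, SKBR3 and T47D cells, against 11.1, 9.23 and 4.32 RPKM in normoxic ones. Every hypoxic library was above its normoxic partner, though hypoxic T47D stayed below normoxic SUM1315 and SKBR3. Means were 12.7 ± 5.55 RPKM in hypoxic and 8.22 ± 3.51 RPKM in normoxic cells (SD, n = 3 each). TOP2A rose by 0.55 ± 0.14 (log2, SE, n = 3 lines, limma adjusted p = 0.0444). The gene lies on chromosome 17 at 40388516 to 40417950 (GRCh38, minus strand). The call stood near the threshold: without SUM1315, SKBR3 or T47D its adjusted p was 0.0980, 0.0820 or 0.116, and it was 0.0554 after scaling each library by its median ratio and 0.0508 after scaling to equal sums. It was 0.0730 with a pseudocount of 5, 0.40 without the filter and 1.0 without the block for cell line.

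In the mitotic entry group 8 of 9 genes had a negative fold change (median -0.26), but none passed. In SUM1315, 5 of the 9 log2 ratios were above 0. CCNA2, the cyclin of S phase and G2, had the lowest value in this group. It stood at 30.002, 11.3 and 16.5 RPKM in hypoxic SUM1315, SKBR3 and T47D cells, against 32.5, 17.4 and 34.1 RPKM in normoxic ones. The difference grew from SUM1315 over SKBR3 to T47D, where the hypoxic level was 0.485 of the normoxic one. Its log2 fold change of -0.57 ± 0.18 gave a limma adjusted p of 0.0872. Without SUM1315, SKBR3 or T47D that adjusted p was 0.0274, 0.153 or 0.393. CDK1, the kinase that cyclins A and B activate, had 11.8, 13.1 and 19.7 RPKM in hypoxic cells of the 3 lines, against 13.2, 17.9 and 40.4 RPKM in normoxic ones (-0.52 ± 0.18, adjusted p = 0.104). CDC25B, a phosphatase that activates CDK1, had -0.45 ± 0.15 (adjusted p = 0.0962), with 22.3, 22.6 and 21.0 RPKM in hypoxic cells against 26.7, 33.1 and 31.7 RPKM in normoxic ones.

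The B-type cyclins, which carry CDK1 through mitosis, stood lowest against normoxia in T47D. CCNB1 had 35.8, 10.3 and 24.1 RPKM in hypoxic SUM1315, SKBR3 and T47D cells, against 35.5, 10.1 and 43.4 RPKM in normoxic ones. Its log2 ratios were 0.01, 0.02 and -0.82, so that the fold change of -0.26 ± 0.19 (limma adjusted p = 0.396) rests on T47D and was 0.02 without it. CCNB2 had ratios of 0.03, -0.26 and -1.06. CDC25C, a second CDK1 phosphatase, went the other way, at 13.5, 1.74 and 2.35 RPKM in hypoxic cells against 8.02, 1.16 and 1.60 RPKM in normoxic ones. Its fold change of 0.46 ± 0.13 had an adjusted p of 0.0634, and the gene was the 1 member of the entry group above 0. The kinases PLK1 (-0.11) and AURKA (-0.20) and the transcription factor FOXM1 (-0.19) were not called (adjusted p = 0.653, 0.480 and 0.481).

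Kinetochore and checkpoint genes had 8 of 9 tested fold changes above 0, none called. In T47D, 6 of the 9 log2 ratios were below 0. BUB1B, the checkpoint pseudokinase BubR1, was highest, with 6.37, 2.92 and 3.59 RPKM in hypoxic SUM1315, SKBR3 and T47D cells against 3.80, 2.46 and 2.63 RPKM in normoxic ones (0.38 ± 0.14, limma adjusted p = 0.116). Its checkpoint partner BUB3 was lowest, at 20.6, 6.11 and 7.63 RPKM in hypoxic cells against 24.7, 8.65 and 16.2 RPKM in normoxic ones. BUB3 had -0.56 ± 0.17 (adjusted p = 0.0747, and 0.0303, 0.0953 or 0.375 without SUM1315, SKBR3 or T47D). Opposite signs thus stood within 1 checkpoint complex. The other checkpoint genes BUB1 (0.10), TTK (0.11) and MAD2L1 (0.01), the centromeric histone CENPA (0.01) and the NDC80 complex genes NDC80 (0.23) and NUF2 (0.15) and the large kinetochore protein CENPF (0.26) lay in between.

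The chromosomal passenger complex, the 4-subunit Aurora B complex that corrects attachments, held the lowest and one of the highest fold changes of all members. CDCA8 (borealin) stood at 60.2, 7.20 and 14.1 RPKM in hypoxic SUM1315, SKBR3 and T47D cells, against 71.2, 10.4 and 29.7 RPKM in normoxic ones (-0.58 ± 0.18, limma adjusted p = 0.0764). Without SUM1315, SKBR3 or T47D that adjusted p was 0.0326, 0.106 or 0.360. INCENP, the scaffold of the complex, stood at 7.37, 2.87 and 4.88 RPKM in hypoxic cells, against 4.19, 2.12 and 3.14 RPKM in normoxic ones (0.50 ± 0.13, adjusted p = 0.0519). For INCENP the adjusted p was 0.170, 0.0466 or 0.194 without SUM1315, SKBR3 or T47D. All 3 pairs were lower under hypoxia for CDCA8 and all 3 were higher for INCENP. AURKB, the kinase, had -0.28 ± 0.16 and BIRC5 had -0.20 ± 0.16 (adjusted p = 0.278 and 0.441).

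Among the anaphase genes, ESPL1 (separase), the protease that cuts cohesin, had 3.94, 2.12 and 3.51 RPKM in hypoxic SUM1315, SKBR3 and T47D cells against 2.42, 1.65 and 2.34 RPKM in normoxic ones. Its fold change was 0.40 ± 0.12 (limma adjusted p = 0.0802). PTTG1, which inhibits separase, had -0.06 ± 0.15 and the checkpoint target CDC20 had -0.17 ± 0.16 (adjusted p = 0.836 and 0.50). UBE2C was lowest in this group at -0.34 ± 0.16 (adjusted p = 0.201).

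All 8 genes of the kinesin group, which leaves out the untested CENPE, had fold changes above 0 (median 0.23), and none passed. KIF23 turned below 0 after either scaling. In SKBR3, 3 of the 8 log2 ratios were below 0, with a median of 0.05. KIF2C, a microtubule depolymerase that corrects attachments, stood at 20.4, 6.32 and 5.26 RPKM in hypoxic SUM1315, SKBR3 and T47D cells, against 13.0, 4.95 and 3.06 RPKM in normoxic ones (0.51 ± 0.14, limma adjusted p = 0.0586). That adjusted p was 0.148, 0.0458 or 0.252 without SUM1315, SKBR3 or T47D. KIF11, the Eg5 motor that separates spindle poles, had a log2 ratio near 0 in SKBR3 (0.01), beside 0.58 in SUM1315 and 0.50 in T47D. KIF23, a motor of the central spindle, stood at 8.96, 2.19 and 3.20 RPKM in hypoxic cells, against 8.69, 2.44 and 2.99 RPKM in normoxic ones. It was lowest in this group at 0.00 ± 0.13, a value whose sign changed with the scaling. KIF20A (0.26), KIF20B (0.26), KIF18B (0.21), KIF4A (0.17) and KIF14 (0.14) lay between. KIF4A shares sequence with the intronless copy KIF4B, which was at most 0.0105 RPKM in any library, and PTTG1 with PTTG3P, at most 0.0684 RPKM.

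Spindle and cytokinesis genes divided evenly, 4 above and 4 below 0. HMMR, a spindle pole protein and hyaluronan receptor, had 9.10, 1.81 and 3.23 RPKM in hypoxic SUM1315, SKBR3 and T47D cells against 4.63, 1.03 and 2.49 RPKM in normoxic ones (0.53 ± 0.14, limma adjusted p = 0.0545). CEP55, which recruits the abscission machinery to the midbody, had 34.9, 5.25 and 16.8 RPKM in hypoxic cells against 34.3, 6.55 and 35.0 RPKM in normoxic ones. Its fold change of -0.42 ± 0.20 (adjusted p = 0.207) came mainly from T47D. The cortical scaffold ANLN (0.38), the Aurora A activator TPX2 (0.36) and the spindle pole protein ASPM (0.30) were above 0 in every line. NUSAP1 (-0.23), the cytokinesis factor ECT2 (-0.18) and the microtubule bundler PRC1 (-0.0017) were not called.

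Chromosome structure genes all had fold changes above 0 (7 of 7, median 0.30), TOP2A being called. Within lines, 2 of the 7 log2 ratios were below 0 in SKBR3 and 1 in T47D. Of the condensin I subunits, NCAPD2 stood at 21.9, 11.5 and 3.001 RPKM in hypoxic SUM1315, SKBR3 and T47D cells, against 12.8, 8.71 and 2.32 RPKM in normoxic ones (0.46 ± 0.15, limma adjusted p = 0.0877). NCAPH, the kleisin subunit, had 4.52, 1.57 and 0.701 RPKM in hypoxic cells, against 3.75, 1.38 and 0.868 RPKM in normoxic ones, and was lowest at 0.06 ± 0.12. The third condensin I subunit, NCAPG, had 0.30. The core ATPases SMC2 (0.31) and SMC4 (0.15) and the proliferation marker MKI67 (0.10) lay between these.

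**Figure D3:**
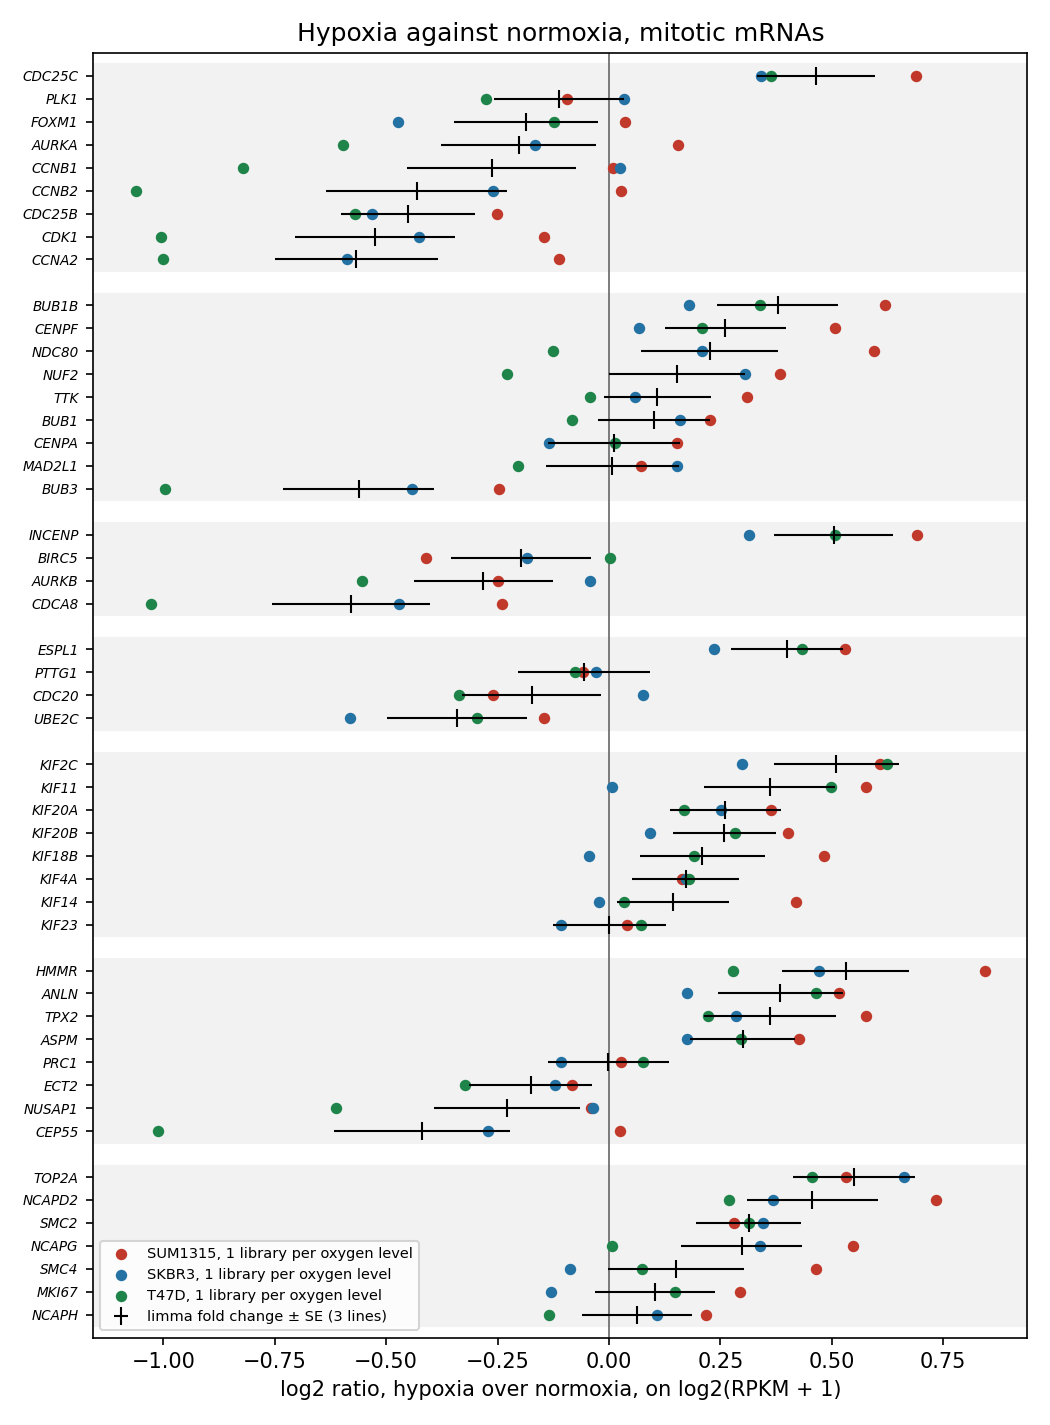
Log2 ratio of hypoxia over normoxia (x axis, on log2(RPKM + 1)) for the 49 tested mitotic genes, with 1 coloured point per line and the limma fold change ± SE over 3 lines in black. Grey bands are the same 7 role groups. Black fold changes of kinesins and chromosome structure genes lie right of 0 (KIF23 at 0.00, and below 0 after other scalings). Those of most mitotic entry genes lie left, and green T47D points reach about -1 in 6 genes.

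Within lines the same genes gave different pictures, each from 1 library against 1 library and so without a test. In SUM1315, 36 of 49 log2 ratios were above 0 (median 0.23), 14 reached 0.5 or more (28.6%, against 8.47% of all tested genes) and 0 reached -0.5 or less (against 4.48%). SKBR3 had 27 above 0 (median 0.03), with 1 at 0.5 or more and 3 at -0.5 or less (against 8.66% and 8.64%). T47D had 26 above 0 (median 0.01), with 2 at 0.5 or more and 11 at -0.5 or less (22.4%, against 12.3% and 10.5%). The pseudocount of 1 shrinks the ratios of low genes most, so the counts at 0.5 or more miss some rises of low members. In T47D, CDC25C (0.363) and KIF11 (0.498) are examples, with RPKM ratios of 1.465 and 1.512 that would pass 0.5 without a pseudocount. Counts at these cuts were not made with other pseudocounts, so the split of 2 against 11 holds for this one only. Of all 10253 tested genes, 5185, 4491 and 5453 had ratios above 0 in SUM1315, SKBR3 and T47D, with medians of 0.005, -0.05 and 0.03. Among the 27 members left by a filter of 5 RPKM in place of 1, the medians were 0.0095 in SUM1315, -0.11 in SKBR3 and -0.30 in T47D, so the sign turned in SKBR3 and T47D. Ranks of the members were nonetheless alike: Spearman correlations across the 49 genes were 0.76 between SUM1315 and SKBR3, 0.80 between SUM1315 and T47D and 0.69 between SKBR3 and T47D, beside 0.39, 0.56 and 0.44 over all tested genes. These describe genes, which are not independent replicates.

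A cut of -0.8 in T47D, chosen after the values were seen, takes 7 members (14.3%, against 2.79% of all tested genes): CCNB2 (-1.06), CDCA8 (-1.03), CEP55 (-1.01), CDK1 (-1.004), CCNA2 (-1.002), BUB3 (-0.996) and CCNB1 (-0.82). The nearest member outside was NUSAP1, a microtubule-bundling protein, at -0.61. In the 7 genes the hypoxic RPKM was 0.465 to 0.556 of the normoxic value. With implied counts of 597 to 1326 reads in the hypoxic and 1394 to 3062 in the normoxic library, counting error was small beside these differences, but culture, gradient and library differences between the 2 T47D samples cannot be told apart from oxygen. In SUM1315 the same 7 genes had log2 ratios between -0.25 and 0.03. In SKBR3, 6 of the 7 were also below 0, at -0.59 (CCNA2), -0.47 (CDCA8), -0.44 (BUB3), -0.43 (CDK1), -0.27 (CEP55) and -0.26 (CCNB2), and CCNB1 was at 0.02.

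Fold changes were ordered by coding length, though not by every measure of length. Coding lengths come from the longest principal transcript in GENCODE release 29. The 17 members with the shortest coding sequences (420 to 1419 bases) had a median fold change of -0.26, with 4 above 0 (23.5%). For the 16 of middle length (1497 to 2880 bases) the median was 0.09, with 10 above 0. In the 16 longest (3045 to 10431 bases) all fold changes were above 0, with a median of 0.30. All tested genes divided at the same lengths had medians of -0.07, 0.02 and 0.12, with 40.2%, 52.5% and 69.5% above 0. Spearman's rho between fold change and coding length was 0.67 over the 49 members, beside 0.16 over 9441 tested genes and 0.28 over 105 other mitotic genes. By line it was 0.62 in SUM1315, 0.49 in SKBR3 and 0.68 in T47D. All tested genes gave 0.15, 0.24 and 0.03 in the same lines and the other mitotic genes 0.31, 0.27 and 0.02.

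Coding length was settled on after the values were seen, as the last of 3 length measures tried, and it gave the highest rho. The full length of the principal transcript, tried first, gave 0.46 over the members and 0.02 over all tested genes, and the median length of all annotated transcripts gave -0.03 and -0.01. The relation therefore depends on the length measure. Level moved with length too. Long members had lower RPKM (rho = -0.75 between coding length and mean level), and fold change against level gave -0.64 over the members and -0.22 over all tested genes. The part of level, library preparation or RPKM scaling in the relation to length was not tested. Role groups differed in length as well. Coding sequences had 891 to 2403 bases in mitotic entry genes, 2175 to 5340 in kinesins and 2223 to 9768 in chromosome structure genes. The signs of these groups therefore cannot be told apart from the order by length. In T47D the 7 low members all had coding sequences of 800 to 1400 bases, a window set after the values were seen. There, 7 of 11 members (63.6%) were at -0.8 or less, against 6.72% of 2844 tested genes in the window, whose median was -0.16. Of all 286 tested genes at -0.8 or less in T47D, 69.0% lay in the same window, as did all 3 such genes among the other mitotic genes, so the window is shared by most low genes of T47D. Among the other mitotic genes in the window, 3 of 22 (13.6%) were that low. NUF2, with a coding sequence of 1392 bases, had -0.23 in T47D.

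**Figure D4:**
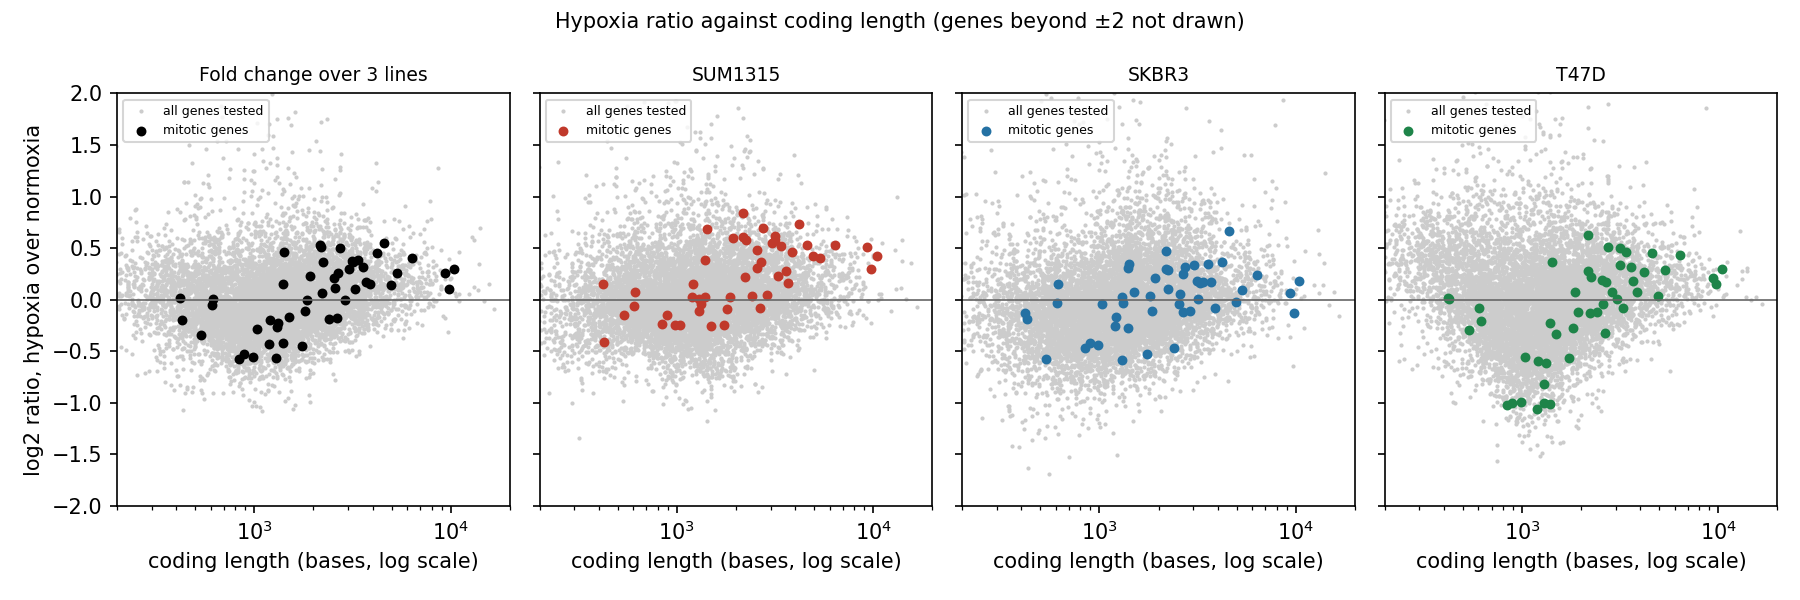
Log2 ratio of hypoxia over normoxia (y axis) against coding length in bases (x axis, log scale), for 49 mitotic genes (coloured) over all tested genes (grey), as the fold change over 3 lines and in each line. The mitotic points climb with length in every panel, and in T47D 7 of them sit between -1.06 and -0.82 at 840 to 1392 bases.

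More members were called between lines than between oxygen levels. SUM1315 had the highest mean log2 level in 43 of 49 members, against 44.6% of all tested genes. T47D was second in 30 of these and SKBR3 second in 13, against 23% and 21.6% of all tested genes with these orders. Both SUM1315 libraries lay above both SKBR3 libraries in 43 members (against 47.8% of all tested genes) and above both T47D libraries in 35 (against 44.6%). Both SKBR3 libraries lay above both T47D libraries in 10 members (against 33.6%), and both lay below them in 26 (against 38.4%). In the same limma fit, with oxygen level as a term, SUM1315 was higher than SKBR3 in 40 members and lower in 0 (81.6%, against 41.8% of all tested genes higher and 28% lower). Against T47D, SUM1315 was higher in 31 and lower in 3 (against 39% and 30.2%). SKBR3 was higher than T47D in 7 and lower in 22 (against 26.6% and 31.2%), and without the normoxic T47D library 17 members in all were called in place of 29. With 1 line of each subtype and 2 libraries per line, these tests compare the 3 lines and say nothing of subtypes. Their SE measures the departure from an additive fit of line and oxygen. It does not cover the spread between cultures of the same line, so the p-values below do not either.

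Between SUM1315 and SKBR3 the gaps were widest for CDCA8 and CEP55. SUM1315 exceeded SKBR3 by 2.78 ± 0.22 (log2, limma adjusted p = 1.8e-06) in CDCA8 and by 2.37 ± 0.24 (adjusted p = 1.2e-05) in CEP55. CDK1 had the highest levels in T47D: SUM1315 minus T47D was -1.12 ± 0.22 (adjusted p = 0.0012), and SUM1315 minus SKBR3 was -0.27 ± 0.22 (adjusted p = 0.29). CDC25B was not called, at -0.16 ± 0.18 for SUM1315 minus SKBR3 (adjusted p = 0.45). PTTG1, at 74.5, 65.5 and 178 RPKM in hypoxic SUM1315, SKBR3 and T47D cells and 77.7, 66.9 and 188 RPKM in normoxic ones, was lower in SUM1315 than in T47D (-1.25 ± 0.18, adjusted p = 0.00015). NCAPD2 was higher than in T47D by 2.28 ± 0.18 in SUM1315 (adjusted p = 2.3e-06) and by 1.60 ± 0.18 in SKBR3 (adjusted p = 4.8e-05). TOP2A was higher in SKBR3 than in T47D by 1.05 ± 0.17 (adjusted p = 0.00047), and CCNB1 (-1.57 ± 0.23, adjusted p = 0.00027) and CEP55 (-1.88 ± 0.24, adjusted p = 0.00011) were lower. CDC25C was higher in SUM1315 than in T47D by 1.96 ± 0.16 (adjusted p = 3.2e-06).

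Around the members, 114 further mitotic genes were listed, of which 105 passed the filter. In this list 2 were called higher (1.90%, against 4.12% of all tested genes) and 1 lower (0.952%, against 2.26%), with a median fold change of -0.05 and 40 above 0. TRIP13, the ATPase that remodels the checkpoint protein MAD2, fell by 0.71 (SE 0.16, limma adjusted p = 0.0340). It stood at 26.6, 12.7 and 25.0 RPKM in hypoxic SUM1315, SKBR3 and T47D cells, against 36.1, 20.7 and 52.8 RPKM in normoxic ones. STAG2 stood at 4.53, 6.33 and 3.93 RPKM in hypoxic cells against 2.89, 3.38 and 2.77 RPKM in normoxic ones, and KIFC1 at 20.3, 11.9 and 9.94 RPKM against 12.8, 9.12 and 5.57 RPKM. Every hypoxic library was below its normoxic partner for TRIP13 and above it for STAG2 and KIFC1. STAG2, a cohesin subunit, rose by 0.55 ± 0.13 (adjusted p = 0.0401), and KIFC1, a minus-end kinesin, by 0.57 ± 0.15 (adjusted p = 0.0469). Without SUM1315 the calls of STAG2 and KIFC1 were lost, without SKBR3 those of TRIP13 and STAG2, and without T47D all 3. The 16 tested genes of the anaphase-promoting complex and its regulators had a median of -0.11, 9 cohesin genes -0.10, 25 further kinetochore genes -0.11 and 10 MuvB, MYBL2 and E2F genes 0.03, with 0 calls in each except STAG2.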

How the data were processed

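Polysome-associated RNA of 3 lines at 2 oxygen levels (6 libraries) was analysed from 1 deposited table, whose header names no unit. The values were read as RPKM made by the authors: multiplied by length, 49.3% to 52.5% of low values of single-transcript genes (GENCODE release 29) were whole multiples of 1 step per library (tolerance 0.02). The submitters' processing notes name Partek, SAMtools, HISAT2 and Trimmomatic, and hg38 and GRCh38 as builds, with no version. The annotation, the gradient fractions taken and the handling of strand were not given in the sources used here. RPKM is scaled to library size, so a change is a share of sequenced polysome RNA. A count of 3 on a 1 kb transcript stands for 0.0898 to 0.138 RPKM, which covers counting error only.

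A gene was tested if 3 of 6 libraries reached 1 RPKM. limma 3.58.1 (R 4.3.3) fitted hypoxia and line contrasts to log2(RPKM + 1) (cell line and oxygen terms, mean-variance trend, two-sided, Benjamini-Hochberg), which understates changes of low genes. With 2 residual degrees of freedom and 8.02 prior ones, each SE draws mostly on the spread of all genes. Lines pair the libraries by label: across genes, the deviations of a line's hypoxic and normoxic library from their group means correlated at 0.94 to 0.97. Nothing replicates a line. On simulated data of 10253 genes, the fit called 40 of 100 genes changed by 0.5 and 98 of 100 changed by 1 (log2). False calls there numbered 14. Members and lists were chosen with earlier results of these data known. Members named are those called, the highest and lowest fold change of each role group, the 3 highest and 3 lowest levels, and the 2 widest line differences of each sign. Other members are named as examples. Alternatives were 2 pseudocounts, 2 filters, 2 scalings, no trend, no block and leaving out lines or libraries. Promoters and gene names come from RefSeq and coordinates and lengths from GENCODE release 29.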

Additional observations from a re-analysis of the deposited data

How the results depend on the processing

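The count of called members moved with nearly every setting. From 1 it went to 4 with a pseudocount of 0.1 (CDC25C, HMMR, INCENP and TOP2A), to 2 with genes at 5 RPKM or more (KIF2C and TOP2A, of 27 members left), and to 0 with a pseudocount of 5, without the filter on low values, with either scaling (median ratio or equal sums) and without the block for cell line. It stayed at 1 without the trend. Leaving out 1 line gave 0 to 3, the 3 being the falls of BUB3, CCNA2 and CDCA8 without SUM1315. In the settings with 0 calls, the members with an unadjusted p under 0.05 numbered 18 with a pseudocount of 5 (against 24.4% of all genes in that fit), 14 without the filter (9.85%), 20 and 19 with median-ratio and equal-sum scaling (26.1% and 25.9%), 9 without T47D (16.3%) and 0 without the block. The reported fit has the block, since lines pair the libraries, and without that block 0.663% of all tested genes had an unadjusted p under 0.05. Calls over all genes moved too. In the reported fit 422 of 10253 genes were called higher and 232 lower. With a pseudocount of 0.1 these were 469 and 247, and without SUM1315 they were 552 and 271. With genes at 5 RPKM or more, 293 of 5525 genes were called higher and 299 lower.

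The count of other mitotic genes called went from 3 to 0 with a pseudocount of 5, without the filter and without the block, to 1 with median-ratio scaling, to 5 with genes at 5 RPKM or more or without the trend, and to between 0 and 4 with 1 line left out. A filter at 5 RPKM or more removes low members and leaves 27 of the 49, so the counts have a smaller base. The line contrasts then called 20 (SUM1315 against SKBR3), 18 (SUM1315 against T47D) and 17 (SKBR3 against T47D) of 27, in place of 40, 34 and 29 of 49. Under this filter the median log2 ratios within lines were 0.0095, -0.11 and -0.30 (SUM1315, SKBR3, T47D), in place of 0.23, 0.03 and 0.01. Without the filter SKBR3 against T47D called 12. Median-ratio scaling gave 31, 29 and 26 in the 3 contrasts, in the order above, and equal-sum scaling gave 40, 39 and 25. With 1 library left out, the 3 contrasts called 29 to 39, 26 to 35 and 17 to 29.

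Signs changed in 3 of the members named by rule, none of them called. KIF23 was -0.0046 with a pseudocount of 0.1, -0.0020 and -0.0031 with median-ratio and equal-sum scaling, and -0.019 and -0.034 without SUM1315 and without T47D. CCNB1, at -0.26 with all lines, was 0.017 without T47D, and NCAPH -0.014 without SUM1315. The rank correlation with coding length became -0.033 with the median length of annotated transcripts. It was 0.55 without the 7 members low in T47D. The alternatives that leave out single libraries or change the length were chosen after seeing the data. The cause of these differences was not tested. With 3 pairs, changes near 0.5 on the log2 scale lie close to what the test can call.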
